A study of Mus musculus with 76 samples.

Results

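The 10 genes described here carry the bone morphogenetic protein (BMP) signal that is disturbed in pulmonary hypertension, namely the receptors Bmpr2, Bmpr1a and Acvrl1, the co-receptor Eng, the Smads Smad6, Smad7 and Smad9, and the target genes Id1, Id2 and Id3. They were taken by symbol from the probe-to-gene table, and all 10 were among the 20710 genes that could be tested. Each had 1 probe on the array, so the rule of taking the brightest probe of a gene made no choice among them.

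BMP ligands bind a pair of receptor kinases, a type 2 receptor such as BMPR2 and a type 1 receptor such as ACVRL1 (also called ALK1) or BMPR1A, and endoglin, the product of Eng, presents BMP9 and BMP10 to the pair on endothelial cells. The receptors phosphorylate the receptor Smads 1, 5 and 9, which enter the nucleus with Smad4 and induce the Id genes, whose products block basic helix-loop-helix factors, and the inhibitory Smads 6 and 7, which dampen the signal. In people, germline mutations of BMPR2, ACVRL1, ENG and SMAD9 cause heritable pulmonary arterial hypertension, and BMPR2 is the gene most often mutated.

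Single-colour Agilent arrays measured RNA from alveolar septa and vessels microdissected from the lungs of 40 mice of the line C57BL/6-Noxo1(tm1881_17.2Arte). Noxo1 encodes an organiser subunit of an NADPH oxidase; mice were Noxo1 knockout (ko) or wild-type (wt), and the labels do not give the deleted part of the gene. From week 12 they either breathed 3R4F research cigarette smoke (se), at a particle load of 140 mg/m3 and for 6 h on each of 5 days weekly, or served as controls (contr). Sample titles give 3 or 8 months for each group and are followed here, although the protocol text common to all samples names 8 months only. The 16 groups of genotype, exposure, months and tissue held 5 arrays each, except 4 arrays in ko contr vessels at 3 months, ko se vessels at 8 months, wt se vessels at 8 months and wt contr septa at 3 months, which made 37 vessel arrays and 39 septal arrays.

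All values are log2 signals as deposited, between 0.94 and 15.79 over all features, with quartiles that differed by at most 0.0024 between arrays. As a yardstick for background, 95% of the signals of 1322 odorant and vomeronasal receptor genes lay under 3.99. Vessel arrays were less alike than septal arrays. Each array's correlations to others from its own tissue had medians from 0.801 to 0.882 in vessels and from 0.897 to 0.935 in septa. The 8 smooth muscle markers were all higher in vessels, with a median difference of 5.12, and the 5 type 1 pneumocyte markers were all lower, with a median difference of -2.41, as the tissue labels say. Vessel arrays also carried markers of cells outside the vessel wall, given with the tissue comparison. Noxo1 itself had a dim signal of 3.20 ± 1.25 in ko vessels (SD, n = 18) against 4.02 ± 1.59 in wt vessels (n = 19 arrays of 18 mice, since mouse 25 has 2), and 2.42 ± 0.67 in ko septa (n = 20) against 3.72 ± 1.27 in wt septa (n = 19). The array labelled ko contr vessel, 8 months, replicate 4 (mouse 7) had 7.03, above every other ko vessel array (at most 4.57). The array labelled wt contr vessel, 8 months, replicate 2 (mouse 29) had 5.88, rank 3 from the top among the 19 wt vessel arrays. The sex-linked pattern (Xist against Kdm5d, Uty and Eif2s3y) differed between vessels and septa in 4 of 35 mice, those numbered 7, 10, 29 and 34, and whether samples were exchanged was not tested. Labels were kept. Without mice 7 and 29, and without all 4, the tissue comparison still called 7 members and the smoke and genotype comparisons none; the changes over months and within single conditions are given without them beside those results.

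The 10 genes spanned a wide range of signal. Acvrl1 averaged 10.13 over 76 arrays, Id1 9.84, Eng 9.62, Bmpr2 9.14, Smad6 9.08, Id3 8.32, Smad7 8.24, Bmpr1a 8.19 and Id2 7.13. Smad9, the receptor Smad whose human form is mutated in some families with pulmonary hypertension, averaged 3.77. It was above 3.99 on 17 of 37 vessel arrays and 24 of 39 septal arrays, so its differences are those of a signal near background. Signals of different probes are not compared as levels.

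Promoter sequence, the 250 bases before a start site in the RefSeq-based promoter table (GRCm38.p6), was available for 7 of the 10 genes. For 4 of them that start is the edge of the annotated gene, and for Bmpr1a, Smad6 and Smad9 it lies inside the gene's span. It was searched on both strands for GGCGCC and GGAGCC, motifs that BMP receptor Smads bind. At least 1 of the motifs was found in 6 of the 7, against 31.7% of 32817 promoters of the same length; GGCGCC was in 4 of 7 (9.6% of all) and GGAGCC in 4 of 7 (26.0% of all). These promoters are shown for Id3 and Smad6, both higher in vessels at 8 months than at 3 months, and for Bmpr2 and Id2, which differed most between the tissues. Capitals mark a motif on either strand, and a match is a description of letters, not a site.
Id3, chr4:136143572-136143821, + strand: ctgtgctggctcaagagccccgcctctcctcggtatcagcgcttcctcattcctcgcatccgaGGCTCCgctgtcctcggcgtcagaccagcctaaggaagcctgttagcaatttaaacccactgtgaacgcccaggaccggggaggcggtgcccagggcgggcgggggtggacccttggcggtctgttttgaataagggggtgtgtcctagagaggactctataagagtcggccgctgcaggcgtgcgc
Smad6, chr9:64022060-64022309, - strand: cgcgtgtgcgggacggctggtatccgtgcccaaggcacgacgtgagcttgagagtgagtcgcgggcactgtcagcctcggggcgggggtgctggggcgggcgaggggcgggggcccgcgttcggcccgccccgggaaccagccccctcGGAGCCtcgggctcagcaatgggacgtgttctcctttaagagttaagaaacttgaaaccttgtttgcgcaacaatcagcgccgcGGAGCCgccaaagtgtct
Bmpr2, chr1:59764029-59764278, + strand: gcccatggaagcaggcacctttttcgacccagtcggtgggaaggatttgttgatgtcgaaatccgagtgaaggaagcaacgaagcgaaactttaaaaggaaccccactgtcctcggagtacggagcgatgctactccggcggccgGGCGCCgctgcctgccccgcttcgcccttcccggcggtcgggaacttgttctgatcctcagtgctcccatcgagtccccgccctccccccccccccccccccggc
Id2, chr12:25096093-25096342, - strand: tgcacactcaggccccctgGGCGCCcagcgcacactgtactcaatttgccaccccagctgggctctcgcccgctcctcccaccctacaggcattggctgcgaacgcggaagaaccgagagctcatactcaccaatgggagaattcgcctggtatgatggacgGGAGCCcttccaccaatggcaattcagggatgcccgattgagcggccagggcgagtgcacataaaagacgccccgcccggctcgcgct
Id3 held 1 GGAGCC motif, 187 bases before its start, and Smad6 held 2 of them. Bmpr2 held 1 GGCGCC motif, 105 bases before its start, and Id2 held 1 of each, at 231 bases (GGCGCC) and 88 bases (GGAGCC). The shorter Smad box GTCT was in 5 of the 7 promoters and in 82.9% of all.

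**Figure D1:**
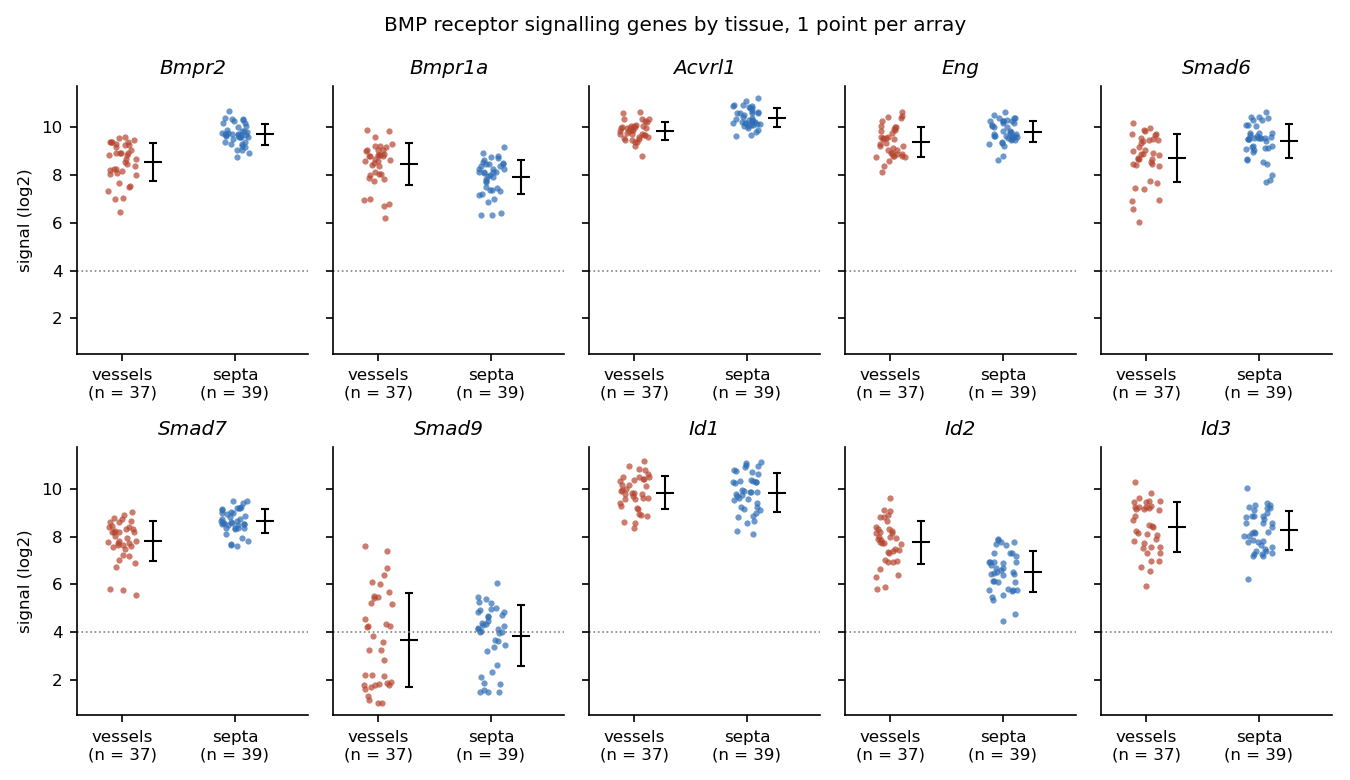
Log2 signal of the 10 genes on each array of vessels (37 arrays) and septa (39 arrays), with the mean and SD beside the points; the dotted line is the background yardstick of 3.99. Bmpr2 and Smad7 sit lower and Id2 higher in vessels, Id1 and Id3 overlap almost wholly, and Smad9 scatters about the line.

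The first comparison set vessels against septa, averaged over the 8 conditions of genotype, exposure and months with the mouse as a random block. Bmpr2, Smad7, Smad6, Acvrl1 and Eng were lower in vessels, Id2 and Bmpr1a were higher, and Id1, Id3 and Smad9 did not pass the test. That is 7 of 10 genes called, where 28.9% of all tested genes were called (12.7% higher and 16.2% lower in vessels), by limma with Benjamini-Hochberg adjustment at 0.05. The median difference of the 10 was -0.31, against 0.02 over all genes. In such bulk tissue, fewer cells of a type and less RNA per cell cannot be told apart.

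Bmpr2, the type 2 receptor, had a lowest, median and highest signal of 6.47, 8.68 and 9.60 in vessels, against 8.77, 9.69 and 10.69 in septa. The ranges overlapped, but 19 of 37 vessel arrays lay below every septal array and none lay above them all. The difference was -1.17 ± 0.15 (SE), 2.25-fold lower in vessels (adjusted p = 1.9e-09, limma), and 34 of 35 mice with both tissues had the lower signal in their vessels. It was below 0 in all 8 conditions, between -1.68 and -0.73. The spread between arrays was wider in vessels, with an SD of 0.80 against 0.43 in septa.

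Acvrl1, a type 1 receptor found chiefly on endothelium, ran from 8.79 through a median of 9.90 to 10.63 in vessels and from 9.62 through 10.32 to 11.22 in septa. The difference of -0.56 ± 0.09 (SE) was small but below 0 in 8 of 8 conditions and in 28 of 35 mice (adjusted p = 3.48e-07, limma). Eng, the endothelial co-receptor, ran from 8.15 through 9.33 to 10.64 in vessels and from 8.64 through 9.78 to 10.63 in septa, nearly the same range. Its difference was -0.43 ± 0.13 (adjusted p = 0.0055, limma), below 0 in 7 of 8 conditions and in 27 of 35 mice. Bmpr1a, the type 1 receptor that most cell types carry, went the other way. Its signals ran from 6.22 through 8.67 to 9.89 in vessels and from 6.34 through 8.12 to 9.18 in septa, a difference of 0.54 ± 0.17 (adjusted p = 0.011, limma) that was above 0 in 8 of 8 conditions and in 27 of 35 mice.

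Among the inhibitory Smads, Smad7 had a lowest, median and highest signal of 5.56, 7.92 and 9.01 in vessels, against 7.59, 8.60 and 9.49 in septa. It was 1.74-fold lower in vessels (-0.80 ± 0.15, adjusted p = 1.44e-05, limma), in 33 of 35 mice and in all 8 conditions. Smad6 had 6.05, 8.89 and 10.19 in vessels, against 7.72, 9.54 and 10.62 in septa, and was 1.61-fold lower in vessels (-0.69 ± 0.17, adjusted p = 0.000661, limma). Its difference was below 0 in 6 of 8 conditions and ran from -1.69 to 0.38, against -1.57 to -0.31 for Smad7.

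The 3 Id genes did not move together between the tissues. Id2 ran from 5.82 through a median of 7.85 to 9.61 in vessels and from 4.45 through 6.53 to 7.90 in septa. Of the 37 vessel arrays 17 lay above the highest septal array, and the signal was 2.36-fold higher in vessels (1.24 ± 0.20, adjusted p = 4.63e-07, limma), in 31 of 35 mice and 8 of 8 conditions. Id1 had a median of 9.84 in vessels and 9.87 in septa, and its difference of 0.02 had a 95% interval from -0.25 to 0.29. Id3 had a median of 8.43 in vessels and 8.19 in septa, and its difference of 0.15 had an interval from -0.22 to 0.51. Smad9 differed by -0.18, with an interval from -0.93 to 0.57.

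Within single conditions, which rest on 4 or 5 arrays per tissue, few members passed. In wt contr mice Bmpr2 was lower in vessels at 3 months (-1.69 ± 0.45, adjusted p = 0.0165, limma; 3.36% of all genes called), and no member was called at 8 months (3.25%). In wt se mice Acvrl1 (-0.84 ± 0.24) and Smad6 (-1.42 ± 0.45) were lower at 3 months (5.13% of all genes called), and none was called at 8 months (3.67%). In ko contr mice none was called at 3 months (4.71%), and Bmpr2 (-1.42 ± 0.42) and Smad6 (-1.69 ± 0.45) were lower at 8 months (6.44%). In ko se mice Smad7 (-1.57 ± 0.41) was lower and Id2 (1.97 ± 0.54) higher in vessels at 3 months (4.37%), and none was called at 8 months (2.52%). Without mice 7 and 29, Bmpr2 (-1.66 ± 0.46) and Smad6 (-1.72 ± 0.52) were still called in ko contr mice at 8 months. Without all 4 mice of unlike sex-linked patterns neither was, with -1.02 ± 0.52 for Bmpr2 (adjusted p = 0.365, limma) and -1.80 ± 0.58 for Smad6 (adjusted p = 0.076); both were then called in ko contr mice at 3 months (-1.36 ± 0.425 for Bmpr2 and -1.51 ± 0.475 for Smad6). Smad6 in wt se mice at 3 months, at an adjusted p of 0.0493 with all arrays, was called in neither setting. These counts do not show that the tissue difference varied between conditions, which was tested separately and is given further on.

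Among endothelial markers, of 10 pan-endothelial markers 7 were lower in vessels (Cdh5 by -1.11, Kdr by -1.24, Tie1 by -0.51) and 1 was higher, Vwf by 2.09, with a median of -0.71. Of 7 capillary markers 6 were lower, with a median of -1.60, among them Gpihbp1 by -2.64. Of 8 arterial and venous markers 3 were higher (Selp by 2.63, Bmx by 1.67, Gja5 by 1.64) and 2 were lower, with a median of 0.01. The summed signal of the pan-endothelial list had a median of 14.45 in vessels (range 13.50 to 15.09) and 14.29 in septa (13.78 to 14.49). Without Vwf the sum had a median of 13.14 in vessels (12.57 to 13.84) and 13.98 in septa (13.55 to 14.26). Smooth muscle markers summed to a median of 15.98 in vessels (14.41 to 16.42) and 11.30 in septa (10.42 to 12.16). The part of these cell types in the differences of Bmpr2, Acvrl1 and Eng was not tested.

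The wider pathway, taken from lists of its known parts, held genes called in both directions between the tissues. Of all tested genes 28.9% were called in this comparison, and whether any list exceeded that share was not tested. Among 9 ligands, Bmp3 (1.99 ± 0.30) and Gdf5 (0.48 ± 0.16) were higher in vessels and Bmp6 (-2.09 ± 0.30) and Bmp5 (-0.97 ± 0.34) were lower. Bmp5 had means of 3.36 in vessels and 4.32 in septa, close to background. Of 8 further receptors and co-receptors, Acvr1, a type 1 receptor, was higher by 0.84 ± 0.20 and Rgmb, a BMP co-receptor, by 0.80 ± 0.26, and Acvr2a, a type 2 receptor that BMPs share with activin, was lower by -0.68 ± 0.17. Of 12 extracellular modulators tested, Bmper, which binds BMPs and can hold or present them, was lower by -2.93 ± 0.34, at a mean of 3.08 in vessels, under the yardstick, and 5.98 in septa, and Fstl3, a follistatin-like inhibitor of activin, was higher by 1.82 ± 0.29. Sost was higher by 0.69 ± 0.18, at means of 2.40 in vessels and 1.72 in septa, both near background.

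Among 6 further Smads and regulators, Smurf2 (-1.55 ± 0.19) and Smad5 (-0.55 ± 0.18) were lower and Smurf1 (0.83 ± 0.28) was higher in vessels; the Smurfs are ubiquitin ligases that mark Smads and receptors for degradation. Among 6 further BMP targets, Id4 was higher by 4.02 ± 0.32, at a mean of 6.79 in vessels and 2.81 in septa. The septal mean lies under the background yardstick, so the size of this difference is uncertain. Tmem100, an endothelial gene that ACVRL1 signalling induces, was lower by -2.31 ± 0.16, and Atoh8 was higher by 0.76 ± 0.29. Hey2 (3.44 in vessels, 1.95 in septa) and Hamp (3.82 in vessels, 2.16 in septa) were called higher at means under the yardstick in both tissues. In the TGF-beta arm, 2 of 7 tested genes were called, a share like the 28.9% of all genes: the ligands Tgfb3 (3.20 ± 0.21) and Tgfb2 (1.95 ± 0.29), both higher in vessels. Of 8 other genes mutated in heritable pulmonary hypertension, Kdr (-1.24 ± 0.19), Sox17 (-1.16 ± 0.14), Tbx4 (-1.001 ± 0.124), Aqp1 (-0.60 ± 0.07) and Cav1 (-0.37 ± 0.11) were lower and Atp13a3 (0.98 ± 0.18) was higher.

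**Figure D2:**
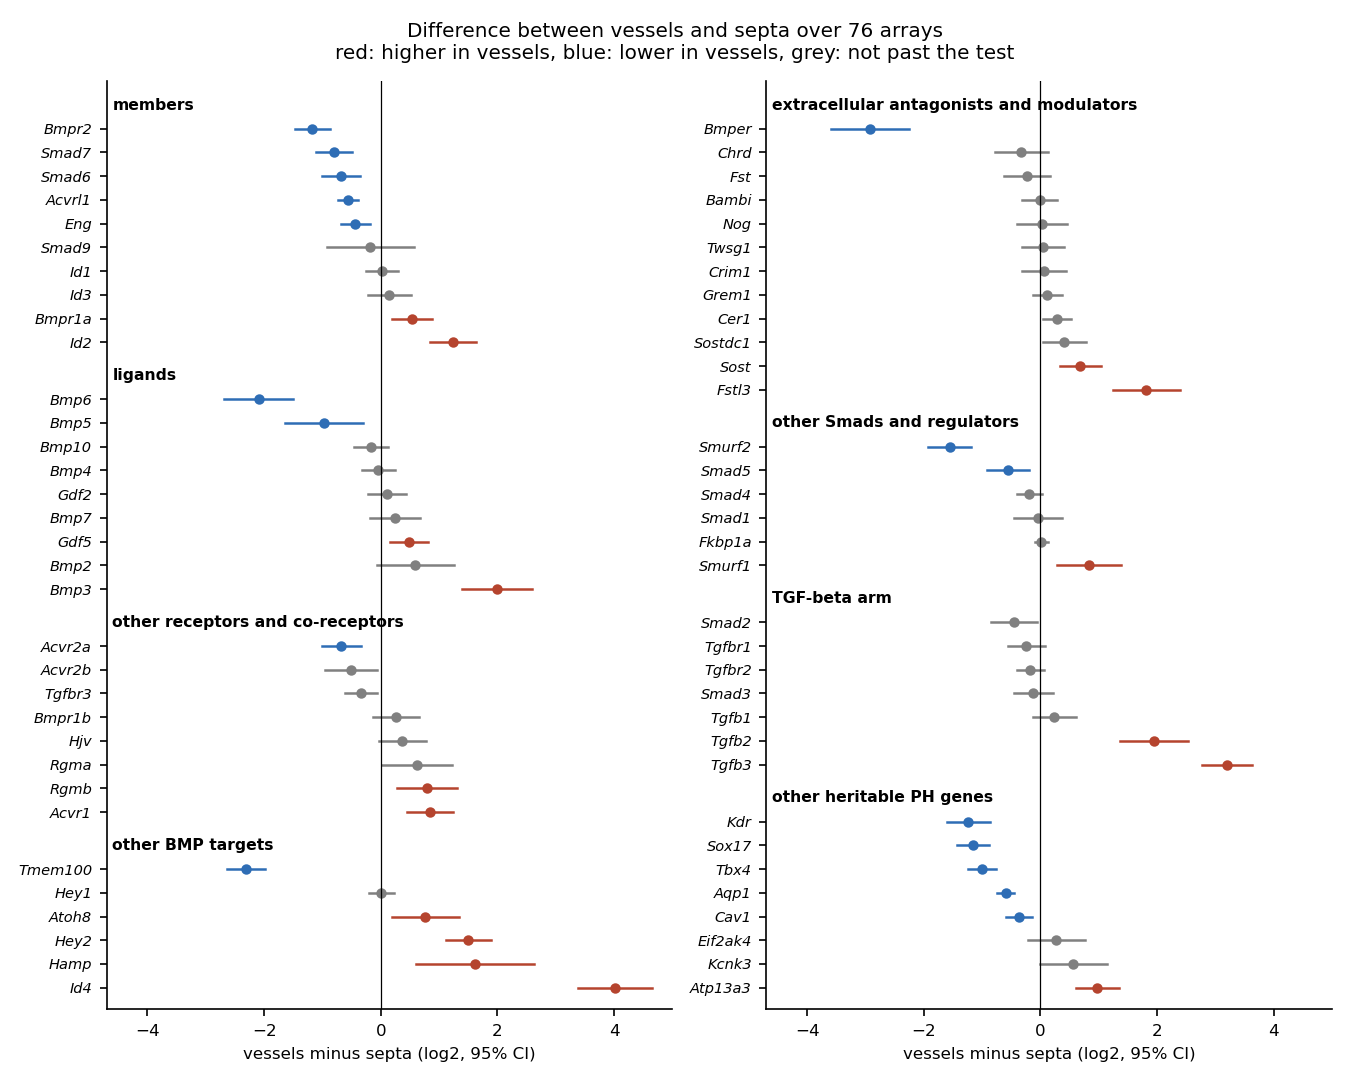
Difference between vessels and septa (log2, with 95% interval) for the 10 genes and the wider pathway, in lists by role; red points were higher and blue points lower in vessels at an adjusted p under 0.05, grey points did not pass. Id4 at 4.02 (septal mean under the background yardstick) and Bmper at -2.93 (vessel mean under it) lie at the ends, and the members range from -1.17 for Bmpr2 to 1.24 for Id2.

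The second comparison set 8 months against 3 months within each tissue, averaged over genotype and exposure; age and length of the experiment cannot be told apart. In vessels Id1, Id3 and Smad6 were higher at 8 months, 3 of 10 genes where 1.27% of all tested genes were called. BMP receptors induce all 3, and also Id2 and Smad7, which were not called. With arrays centred on the gene median none of the 3 was called, as given below. In septa Id1 alone of the 10 passed, where 3.5% of all tested genes were called. No receptor passed in either tissue. The median difference of the 10 was 0.58 in vessels and 0.25 in septa, against 0.02 over all genes in both.

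Id1 had a lowest, median and highest signal of 9.18, 10.39 and 11.15 in vessels at 8 months, against 8.34, 9.58 and 10.51 at 3 months. The ranges overlapped over much of their length, and the 8-month arrays lay higher as a group. The difference was 0.85 ± 0.19 (SE), 1.80-fold higher (adjusted p = 0.0186, limma), and it was above 0 in all 4 combinations of genotype and exposure, between 0.77 and 1.00. In septa Id1 had 8.58, 10.30 and 11.14 at 8 months, against 8.10, 9.55 and 10.63 at 3 months, a difference of 0.84 ± 0.19 (adjusted p = 0.00557, limma), again above 0 in 4 of 4 combinations, between 0.31 and 1.34. The difference between the tissues in this change of Id1 was 0.02, with a 95% interval from -0.52 to 0.56.

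Id3 had 7.56, 9.21 and 10.30 in vessels at 8 months, against 5.94, 7.72 and 9.63 at 3 months, and was 2.26-fold higher (1.18 ± 0.28, adjusted p = 0.0277, limma). Smad6 had 7.40, 9.47 and 10.19 at 8 months, against 6.05, 8.48 and 9.67 at 3 months, and was 2.15-fold higher (1.10 ± 0.26, adjusted p = 0.0275, limma). The promoters of both, printed with the levels, hold GGAGCC, as do 26.0% of all promoters. Those of Id2 and Smad9, not called over months, hold it too, and no promoter sequence of Id1 was available. The differences of Id3 and Smad6 were above 0 in 4 of 4 combinations, Id3 between 0.83 and 1.58 and Smad6 between 0.60 and 1.57. In septa Id3 differed by 0.21 (95% interval -0.26 to 0.68) and Smad6 by 0.26 (-0.14 to 0.66), and neither passed. The change in vessels exceeded that in septa by 1.03 ± 0.37 for Id3 (adjusted p = 0.396) and by 0.86 ± 0.33 for Smad6 (adjusted p = 0.424) in the limma fit of both tissues, so neither difference between the tissues passed.

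These 3 calls in vessels depended on the scaling and on a few arrays. The median gene of a vessel array was 4.49 ± 0.10 (SD, n = 18) at 8 months and 4.33 ± 0.14 (n = 19) at 3 months, a shift of 0.16, against 0.03 in septa. With each array centred on its gene median the differences were 0.69 for Id1, 1.02 for Id3 and 0.95 for Smad6, with adjusted p of 0.0554, 0.0568 and 0.0631, and none was called; the share of higher genes among all calls was 32.9% instead of 80.5%, and the median of all genes moved to -0.134. Without mice 7 and 29, Id1 remained called, and Id3 (1.11) and Smad6 (1.04) had an adjusted p of 0.0632 each. Without all 4 mice of unlike sex-linked patterns, Id3 and Smad6 remained called and Id1 had an adjusted p of 0.0539. Endothelial markers at 8 against 3 months in vessels included Cdh5, higher by 0.73 ± 0.16, and Sox17, higher by 1.26 ± 0.25, the only called ones of 10 pan-endothelial and 8 arterial and venous markers; their part was not tested.

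The other genes of the 10 are given by their values. In vessels Bmpr1a was 8.86 at 8 months and 8.07 at 3 months on average (difference 0.78, adjusted p = 0.144), Smad7 differed by 0.63 (adjusted p = 0.266) and Id2 by 0.54 (adjusted p = 0.427), and Acvrl1, Eng, Bmpr2 and Smad9 lay between -0.19 and 0.19. In septa Acvrl1 differed by -0.32 (adjusted p = 0.118, limma) and Eng by -0.33 (adjusted p = 0.219). Bmpr1a differed there by 0.49 (adjusted p = 0.268), Smad9 by 0.45, Id2 by 0.37, Smad7 by 0.24 and Bmpr2 by -0.16, none of them past the test. Of the wider pathway, besides Sox17 above, Hey1, a Notch and BMP target, was higher by 0.85 ± 0.19 in vessels at 8 months. It is on a list of 6 further BMP targets, and 1.27% of all tested genes were called there. In septa, where 3.5% of all tested genes were called, Bmp6 (of 9 ligands) was lower by -0.70 ± 0.21. The inhibitor Fstl3 (of 12 modulators tested) was lower by -1.18 ± 0.33. Tbx4, a lung mesenchyme factor (of 8 other genes of heritable pulmonary hypertension), was higher by 0.55 ± 0.14. Whether any list exceeded the share over all genes was not tested. Bulk septa also had 2 of 6 alveolar macrophage markers higher at 8 months, Chil3 by 1.93 and Plet1 by 1.97. The endothelial markers Vwf (-0.70, of 10 pan-endothelial markers) and Gja5 (-0.78, of 8 arterial and venous markers) were lower. The summed pan-endothelial signal in septa had a median of 14.28 at 8 months and 14.29 at 3 months. Without Vwf the sum had a median of 14.12 at 8 months and 13.95 at 3 months. The arterial and venous sum had 11.96 at 8 months and 12.05 at 3 months. The part of these cell types was not tested.

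**Figure D3:**
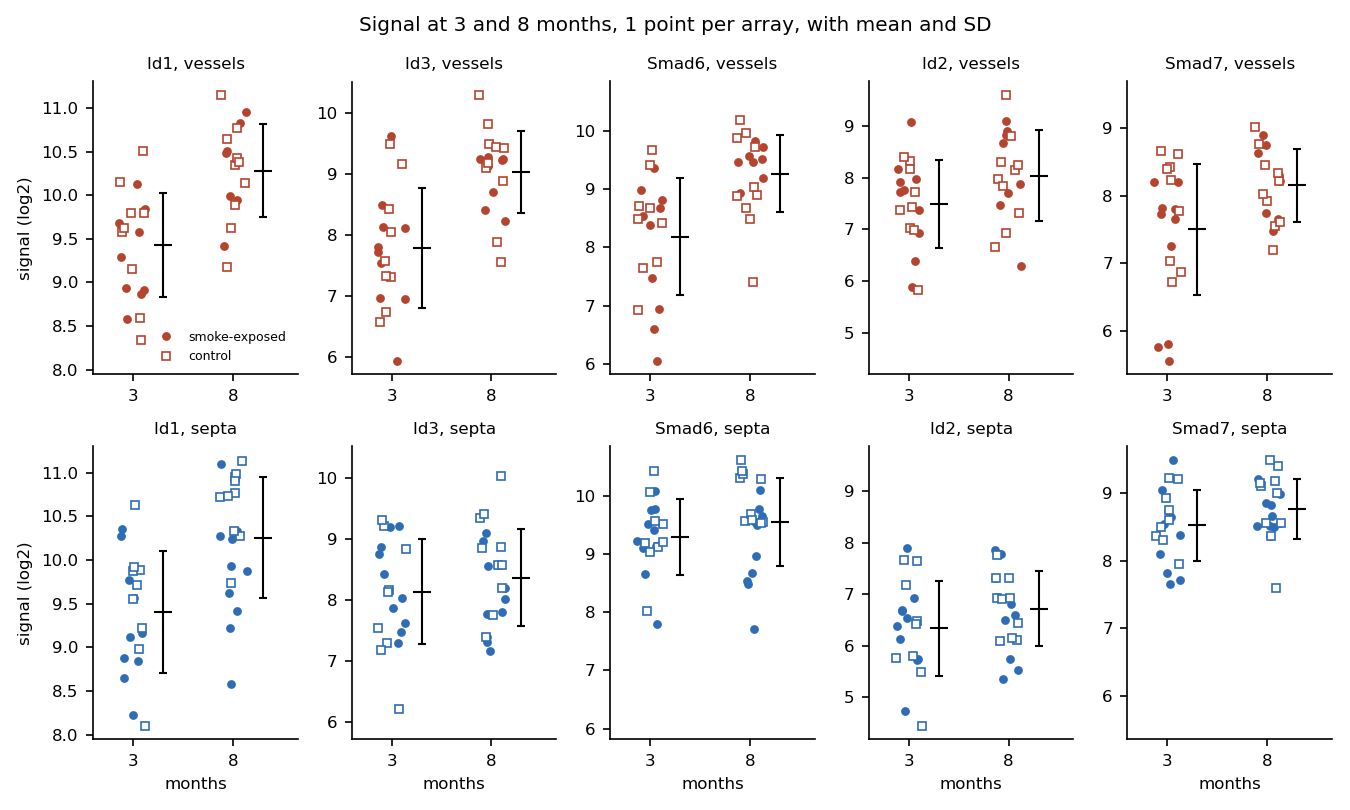
Log2 signal at 3 and 8 months of Id1, Id3, Smad6, Id2 and Smad7 in vessels (top) and septa (bottom), 1 point per array, filled for smoke-exposed and open for control mice, with the mean and SD beside the points. In vessels Id1, Id3 and Smad6 lie higher at 8 months in both exposure groups, and in septa the shift of Id1 is of like size.

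Each member was followed over all 16 group means. Bmpr2 was highest in wt contr septa at 3 months (10.03 ± 0.39, SD) and lowest in ko contr vessels at 8 months (8.19 ± 1.26). Id1 was highest in ko contr septa at 8 months (10.83 ± 0.13) and lowest in ko se septa at 3 months (8.89 ± 0.50), and Id3 was highest in wt contr vessels at 8 months (9.19 ± 1.00) and lowest in ko se vessels at 3 months (7.27 ± 0.86). Ordered by mean, of the 15 steps between neighbouring groups 1 exceeded the larger SD of the pair for Bmpr2 and 1 for Smad6. For the other members none did. Ordering 16 means makes the steps between neighbours small, so these steps cannot show whether groups differ. Neighbouring ranks are not read as differences.

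The groups' patterns were also compared over the 16 means, as a description across groups that share tissue and months. Among 15532 genes with a mean above the 25th percentile of gene means (2.44, which is under the background yardstick), Bmpr2 followed Fgf1, Dpp4 and Stk4 most closely (Pearson r = 0.97 each), Id2 Romo1, Prom1 and Pi15 (0.92 each), Smad7 Dusp1 (0.95) and Id1 Brd9 (0.92). Among the members, the closest pairs were Id1 with Id3 (0.80), Bmpr2 with Acvrl1 (0.79) and Smad6 with Smad7 (0.79). Over the deviations of single vessel samples from their group means (36 samples), Id1 and Id3 correlated at r = 0.56 (permutation p = 0.0024, adjusted over 6 relations 0.014) and rho = 0.42 (permutation p = 0.024, adjusted 0.13), and r was 0.40 without the 2 farthest samples. In septa, over 39 arrays, the same pair had r = 0.22 (permutation p = 0.30) and rho = 0.13 (permutation p = 0.50). Id1 and Id2 had r = 0.36 in vessels and 0.40 in septa. Id2 and Id3 had r = 0.09 in vessels and -0.35 in septa. None of these other relations passed adjustment at 0.05.

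The third question was whether cigarette smoke changed these genes. None of the 10 was called in any of the 8 comparisons of smoke against control within a tissue, genotype and time, nor in the 2 averages, by limma with Benjamini-Hochberg adjustment. The background was 0% of all tested genes in all of them except wt septa at 3 months, where 0.00483% was called. At an unadjusted p under 0.05, 1594 of all genes passed in the septal average and 1036 in the vessel average, among them 3 and 0 of the members. Differences of the members ran from -1.97 to 0.97 in the single comparisons.

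In the septal average Smad9 differed by -1.10 ± 0.36 (adjusted p = 0.551, limma), Id1 by -0.53 ± 0.19 (adjusted p = 0.556) and Smad6 by -0.49 ± 0.20 (adjusted p = 0.569). Smad9 had a lowest, median and highest signal of 1.48, 3.57 and 5.46 in se septa and 1.48, 4.63 and 6.07 in contr septa. At 3 months it was above the background yardstick on 1 of 5 ko se and 1 of 5 wt se arrays, against 4 of 5 ko contr and 4 of 4 wt contr arrays. At 8 months it was above it on 4 of 5 ko se and 2 of 5 wt se arrays, against 4 of 5 ko contr and 4 of 5 wt contr arrays, with differences of -0.37 ± 0.70 in ko and -0.30 ± 0.70 in wt mice. The largest values of Id1 and Smad6 came from ko septa at 8 months. Id1 had a mean of 9.73 ± 0.70 (SD, 8.58 to 10.33, n = 5) in ko se septa and 10.83 ± 0.13 (10.72 to 10.99, n = 5) in ko contr septa. The difference was -1.10 ± 0.37 (adjusted p = 0.587, limma). In that comparison 1357 of 20710 tested genes passed at an unadjusted p under 0.05 by limma, and 0% after adjustment. Smad6 had 9.16 ± 0.99 in ko se septa and 10.23 ± 0.40 in ko contr septa, and Id3 had 7.85 ± 0.75 in ko se septa and 8.84 ± 0.32 in ko contr septa.

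Values of other genes are given beside these. All 8 immediate early genes were below 0 in the ko septa at 8 months, such as Egr1 by -1.85 ± 0.63, Fosb by -2.66 ± 0.92 and Nr4a1 by -1.40 ± 0.48, none past adjustment. Their summed signal ran from 11.88 to 14.09 in ko se septa and from 13.69 to 15.20 in ko contr septa. The female sex-linked pattern was present on 11 of 20 se and 4 of 19 contr septal arrays, and on 9 of 18 se and 4 of 19 contr vessel arrays. In ko septa at 8 months it was present on 4 of 5 se arrays and 0 of 5 contr arrays. The fits were run again with a sex-linked score (Xist minus the mean of Kdm5d, Uty and Eif2s3y) as covariate. No member was then called between smoke-exposed and control mice. Since none was called without the covariate, this cannot show the part of sex in the members' values. The part of the immediate early genes was not tested.

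**Figure D4:**
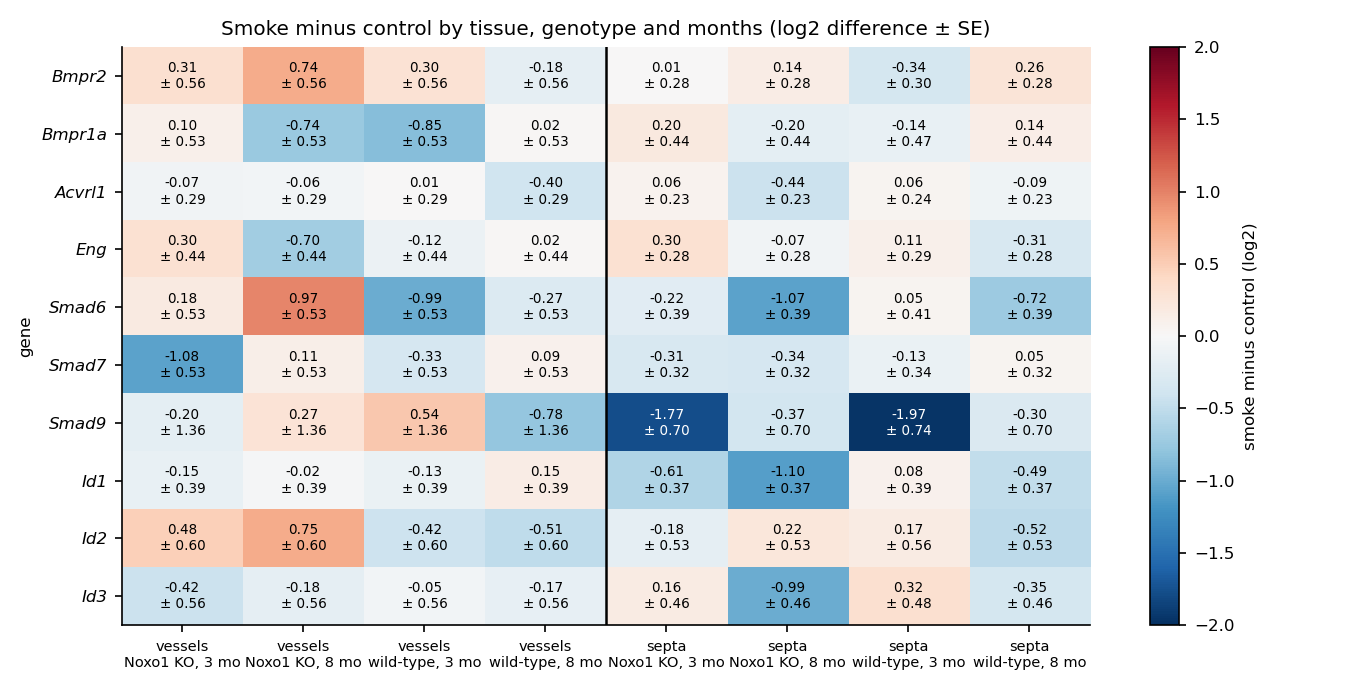
Difference between smoke-exposed and control mice (log2, with SE) for each gene by tissue, genotype and months; blue is lower and red is higher in smoke-exposed mice. None passed the test after adjustment; Smad9 in septa at 3 months reaches -1.97 in wild-type and -1.77 in knockout mice.

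Loss of Noxo1 was compared in the same fits. None of the 10 was called between ko and wt in vessels or septa, where 0% of all genes was called and 1007 and 825 genes passed at an unadjusted p under 0.05 by limma. Id1 differed by -0.42 ± 0.19 in vessels (adjusted p = 0.979, limma) and Id3 by -0.48 ± 0.23 in septa (adjusted p = 1, limma). Acvrl1 differed by -0.01 in vessels, with a 95% interval from -0.30 to 0.29. The effect of smoke did not differ between ko and wt past adjustment for any of the 10, in a background of 0%; 907 genes in vessels and 787 in septa passed unadjusted. Smad6 in vessels differed in its response to smoke by 1.21 ± 0.53 (adjusted p = 0.998, limma). The tissue difference did not change past adjustment with smoke (0.00966% called), genotype (0%) or months (0.0338%) for any member.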

How the data were processed

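The deposited table holds log2 intensity values that the authors had normalized between arrays; limma is the tool in the submitters' processing notes, with no version or further step given, and the arrays' common quartiles are a property of the table. Per the labels, RNA was extracted with RNeasy Micro, amplified with Ovation PicoSL WTA V2 and labelled with Cy5, and the submitters dropped 4 arrays that gave no signal. Of 62976 features, 31465 had 1 gene symbol and 31511 had none; 29036 were matched to RefSeq by accession and 2933 symbols were updated. The brightest probe over 76 arrays stood for each of 20710 genes.

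limma 3.58.1 (R 4.3.3) fitted 1 mean per group within each tissue, with the 2 vessel arrays of mouse 25 averaged, and over all 76 arrays with the mouse as a random block (consensus correlation 0.026). Empirical Bayes used a trend, and Benjamini-Hochberg adjustment ran over all 20710 genes at 0.05. The number of arrays limits the precision. Replicates of a group carry different mouse numbers, apart from the 2 arrays of mouse 25. The replicate numbers were not used as pairs in the main fits. Residuals of equal numbers correlated at 0.024 in vessels and 0.012 in septa, and those of unequal numbers at -0.006 and -0.003. Whether the numbers mark a shared batch was not tested. Correlations used 100000 permutations in scipy 1.17.1. The fits were also run on simulated arrays with the real means and spreads, known shifts and independent normal noise. How many shifts were recovered is not given here, so these runs do not bear on the comparisons without calls. The members, the lists of pathway genes and markers, and the rule that every member is named and other pathway genes are named where called, were chosen with earlier results of these data known.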

Additional observations from a re-analysis of the deposited data

Results flagged for a closer look

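In 160 combinations of gene and group, 11 held 1 array far from the others by Dixon's test at 95%; chance alone flags about 1 group in 20. In septa these were Bmpr1a at 6.40 in ko contr at 8 months, replicate 4, below the others (8.25 to 8.81), Smad6 at 10.42 in wt contr at 8 months, replicate 5, above them (9.54 to 9.68), and Smad7 at 9.20 in wt se at 8 months, replicate 2, above them (8.51 to 8.66). Smad9, near background, stood apart at 3.62 in ko contr septa at 8 months, replicate 2 (mouse 7), and at 4.06 in wt se septa at 3 months, replicate 2.

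In vessels, wt se replicate 3 at 3 months was low for both Smad7, at 5.56 against 7.73 to 8.20, and Id1, at 8.94 against 9.58 to 9.84. The wt se replicate 4 at 8 months was low for both Eng, at 8.80 against 9.51 to 9.59, and Id3, at 8.42 against 9.14 to 9.28. Smad6 was low at 9.19 in wt se at 8 months, replicate 1, and Smad9 was high at 6.39 in ko se at 3 months, replicate 5, against 2.21 to 3.27.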

How the results depend on the processing

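Most recomputed counts belonged to comparisons where no member and close to 0% of all genes were called. Such counts of 0 had little room to change. The counts of called members kept their exact value in 216 of 220 recomputations, which did not include those leaving out 1 array. The other 4 were all in vessels at 8 against 3 months, where 3 members were called: 0 were called with arrays centred on the gene median, 1 without mice 7 and 29, 2 without the 4 mice with unlike sex-linked patterns and 4 in one fit over 76 arrays; the cause was not tested. In that comparison 2 to 3 members were called when each array was left out in turn, Id3 having 1.10 (adjusted p = 0.053, limma) without ko contr vessel at 3 months, replicate 4. The fit over 76 arrays added Bmpr1a (0.78, adjusted p = 0.0467). Over all genes that comparison had 262 calls, against 1111 in the fit over 76 arrays and 148 without mice 7 and 29. Leaving out the 4 mice with unlike sex-linked patterns was chosen after seeing the data; 159 genes in all were then called in that comparison. The tissue comparison called 7 members under every setting run. With the replicate block, and also with the sex-linked covariate, the counts were 7 for tissue, 3 for vessels and 1 for septa by months. Of single member values, 85 of 2200 changed sign, none of them called. No alternative was run for the other pathway genes.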
